A study of Homo sapiens with 6 samples.

Results

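The p53 pathway and GADD45 genes described here are 33 genes taken by symbol: regulators of p53, its targets in growth arrest, DNA repair, cell death and metabolism, and the GADD45 family. All 33 matched a row of the count table by their current symbol, among 63677 genes in all, and 31 had enough counts to be tested. The cells were labelled LoVo, an established human colorectal cancer line, and were transfected with siRNA at 25 nM for 48 h. The 3 scramble libraries came from cells given a negative control siRNA, and the 3 siRNA libraries from cells given a pair of siRNAs together against *SNHG15*, a long noncoding RNA that also hosts a small nucleolar RNA. The study described them as biological replicates. The labels name no DNA damaging agent in either arm, so the levels below are those of transfected cells without added damage.

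p53 is a transcription factor that cells stabilise when DNA is damaged or when ribosome assembly, nutrients or oncogenes put them under stress. It binds DNA as a tetramer and switches on *CDKN1A*, which stops the cell cycle, along with genes for repair and for apoptosis, and it switches on *MDM2*, whose product marks p53 for destruction and so closes the loop. The GADD45 proteins are small acidic stress sensors that bind PCNA, the CDK1 and cyclin B1 complex and the kinase MAP3K4. *GADD45A* is a p53 target, but stress factors such as ATF4, and BRCA1 and EGR1, also act on it, while *GADD45B* is best known as a target of NF-kB and TGF-beta signaling and *GADD45G* as a cytokine response gene.

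To show where p53 could contact these genes, the consensus p53 element was searched on the GRCh37 genome in the 5001 bases around each transcript start. The element is 2 arms of 10 bases side by side. Each arm has a core of 4 bases that opens with C, closes with G and holds A or T at both places between, and both cores had to be intact, with at most 2 mismatches allowed in the flanking bases. The element reads the same on both strands, so both were covered. Of 32 members with a window, 13 (40.6%) held at least 1 such element, against 434 of 19194 protein-coding genes (2.26%). Many members were listed because they are known p53 targets, so a higher share follows from that choice. The elements shown next belong to the 3 members that passed the test and hold one, *GADD45A*, *GADD45B* and *ZMAT3*, and to *CDKN1A*, *PMAIP1* and *BTG2*, which did not pass it. They read 5′ to 3′ on the strand of the gene, with the core bases in capitals.
CDKN1A: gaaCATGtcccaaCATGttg
GADD45A: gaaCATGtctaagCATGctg
GADD45B: agaCTTGgttgaaCTTGgtt
ZMAT3: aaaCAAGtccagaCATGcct
PMAIP1: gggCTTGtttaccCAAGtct
BTG2: acgCATGttcaggCATGcat

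The *CDKN1A* element lies at chr6:36644226-36644245 on the plus strand, 2265 bases upstream of the start of the canonical transcript, and has 2 mismatches. The *GADD45A* element lies at chr1:68152458-68152477 on the plus strand, in intron 3, and has 1 mismatch. Both are textbook p53 response elements. The *GADD45B* match, at chr19:2478019-2478038 on the plus strand, falls in exon 4 with 2 mismatches. *ZMAT3* holds an element with 0 mismatches at chr3:178787976-178787995 on the minus strand, in intron 1. So does *PLK2*, a member too scarce to test, so that 2 of 32 members (6.25%) hold one without a mismatch. Of all protein-coding windows, 13 (0.0677%) do. The *PMAIP1* element lies at chr18:57566781-57566800 on the plus strand, 447 bases upstream, and that of *BTG2* at chr1:203272770-203272789 on the plus strand, 1877 bases upstream. An element was found in 3 of the 6 members that passed the test (50.0%) and in 8 of 24 that were tested and did not (33.3%). A match is a match of letters, and no binding was measured. Elements with bases between the arms, a changed core or more mismatches would be missed. A gene without a match here may therefore still hold an element, and the shares of 6 and 24 members were not compared by a test.

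Library totals ran from 3446922 counts in scramble replicate 3 to 10256710 in scramble replicate 2. The targeted RNA was lower in every siRNA library: *SNHG15* averaged 276 ± 14.3 CPM (counts scaled to the TMM-adjusted library total, mean ± SD, n = 3) in the scramble and 82.5 ± 5.0 CPM in the siRNA libraries. Along the first principal component of all genes tested, siRNA replicate 1 stood at 39.1, siRNA replicates 2 and 3 at 14.3 and 11.5, and the scramble libraries between -24.0 and -17.0. For the members it touched most, values without siRNA replicate 1 are given as well. Of 12 colon epithelial markers, 4 (*KRT8*, *KRT18*, *CDH1* and *CDX2*) had enough counts to be tested and 6 (*KRT19*, *KRT20*, *CDH17*, *CDX1*, *VIL1* and *CEACAM6*) had 0 counts in all libraries. *EPCAM* and *CEACAM5* had at most 1 count in any library. The summed level of all 12 was 102 to 110 CPM in the scramble and 106 to 117 CPM in the siRNA libraries. Most of that sum came from *KRT8*, *KRT18* and *CDX2*. Since most of the markers were at or near 0 counts, the cells are named here only as the labels name them. The identity of the line was not tested. Low counts were not confined to these markers. Among other genes looked up, *CDK4* had 4, 2 and 6 counts in the scramble and 5, 4 and 9 in the siRNA libraries. *KAT5* had 1, 5 and 1 against 0, 3 and 0 counts. Whether reads of some genes were lost in counting was not tested, so a count near 0 may not mean absent RNA. Fibroblast markers summed to at most 1.25 CPM, immune markers to at most 0.277 CPM and endothelial markers to at most 0.234 CPM in any library.

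Across the 31 tested members the genes that passed the test went both ways, with *GADD45A* at the low end of the whole range. At an adjusted p under 0.05 (edgeR's quasi-likelihood test, Benjamini-Hochberg over all 12507 genes tested), *GADD45A*, *GADD45B*, *BBC3* and *XPC* fell and *TP53I3* and *ZMAT3* rose, while *CDKN1A*, *MDM2* and *BAX* did not pass. The share of members past the threshold was therefore 6 of 31 (19.4%), against 671 of 12507 genes (5.36%), with 392 genes higher (3.13%) and 279 lower (2.23%). By DESeq2 the counts were 7 of 31 members and 761 of 13118 genes (5.8%). The median log2 fold change of the members was -0.055, with 16 of 31 below 0, and that of all genes tested was 0.00050. Without scramble replicate 1 the members' median was 0.04, and without siRNA replicate 1 it was 0.043, so that a single library decided its sign. In 16 members (51.6%) all libraries of one group lay above all of the other, 6 of them higher and 10 lower with the siRNA. Among all genes tested this held for 3603 (28.8%), 1836 higher (14.7%) and 1767 lower (14.1%). An unadjusted p under 0.05 was reached by 15 members (48.4%) and by 2820 genes (22.5%). The members were chosen with earlier results of these data known, so their shares are a description and may reflect that choice. RNA was taken from whole cultures, where fewer cells of a kind and less RNA per cell cannot be told apart.

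**Figure D1:**
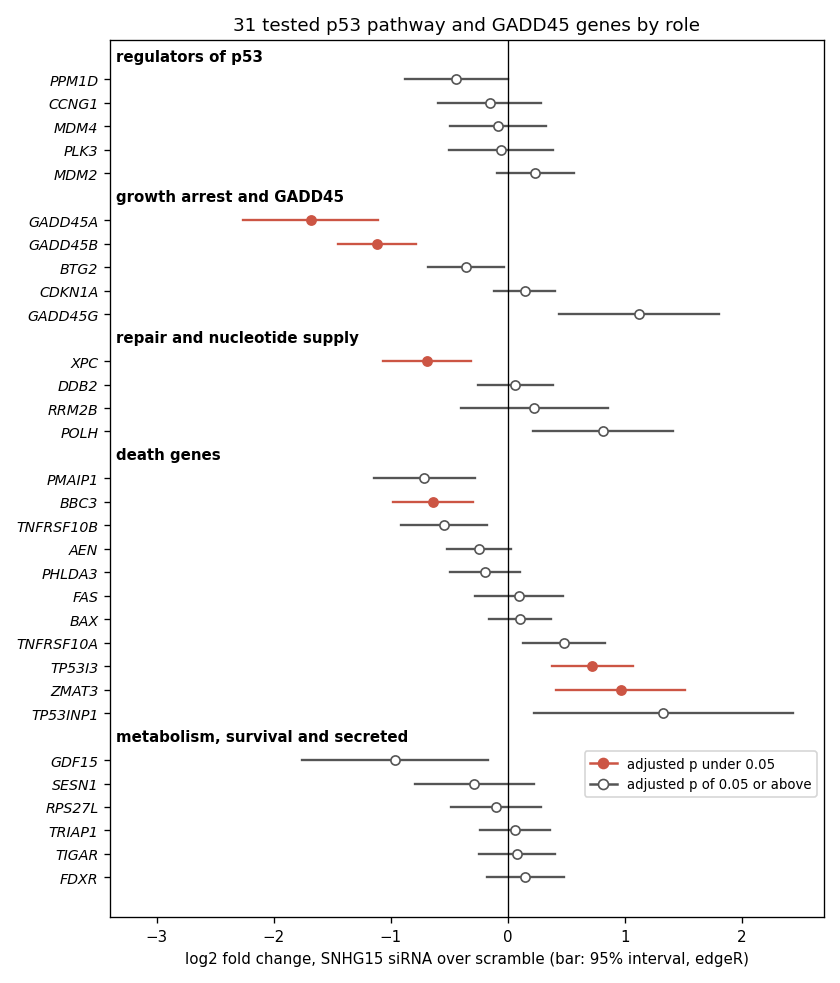
The x axis gives the log2 fold change of each of the 31 tested genes (siRNA over scramble, edgeR) with its 95% interval, and the rows group the genes by role. Filled red points are the 6 genes with an adjusted p under 0.05, running from *GADD45A* at -1.69 to *ZMAT3* at 0.96, and open points are the other 25.

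*GADD45A* (ENSG00000116717, chr1:68150884-68154017, plus strand, 4 exons in the canonical transcript) was the member that fell furthest. It stood at 795, 1132 and 689 CPM in scramble replicates 1 to 3 and at 148, 309.7 and 355 CPM in siRNA replicates 1 to 3. The groups did not overlap, and siRNA replicate 1 lay well under the other two. The mean went from 872 ± 231 to 271 ± 109 CPM, or 31.1% of scramble, with a log2 fold change of -1.69 ± 0.27 (SE) and an adjusted p of 0.00548. Leaving out 1 library at a time gave fold changes from -1.93 to -1.39 on this scale, and the gene passed the threshold in all 6 of those fits. Without siRNA replicate 1, the lowest library, it was -1.39 with an adjusted p of 0.000929.

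*GADD45B* (ENSG00000099860, chr19:2476120-2478257, plus strand, 4 exons) fell with less spread. Its levels were 31.6, 41.3 and 35.7 CPM in the scramble libraries and 16.2, 17.8 and 16.1 CPM in the siRNA libraries. All 3 siRNA libraries therefore lay close together and well under the scramble libraries. The log2 fold change was -1.12 ± 0.15 (SE), or 46.2% of scramble, with an adjusted p of 0.00325, and it also passed in all 6 fits with a library left out, between -1.22 and -0.996. A two-sided exact permutation test of the log2 levels gave p = 0.1 for *GADD45A* and p = 0.1 for *GADD45B*, which is the smallest that 3 against 3 allows.

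*GADD45G* (ENSG00000130222, chr9:92219927-92221470, plus strand) was the scarcest of the family and did not pass the threshold. It had 21, 23 and 5 counts in the scramble and 48, 24 and 37 in the siRNA libraries, or 2.46, 2.29 and 1.51 against 6.65, 3.45 and 4.35 CPM. Every siRNA library lay above every scramble library, opposite to the other two GADD45 genes. The log2 fold change was 1.12 ± 0.32 (SE) with an adjusted p of 0.0574, and over the alternatives the adjusted p ran from 0.013 without a filter to 0.182 without scramble replicate 2. With upper-quartile scaling it was 0.0485. Scramble replicate 3, with 5 counts, is also the shallowest library.

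Per kilobase of annotated exon, the family spans a wide range in these cells. In the scramble libraries the level was 453 ± 120 CPM per kb for *GADD45A*, 16.9 ± 2.26 for *GADD45B* and 1.58 ± 0.38 for *GADD45G* (SD, n = 3). With the siRNA it was 141 ± 56.5, 7.82 ± 0.45 and 3.64 ± 1.25 CPM per kb, so the order of the 3 genes was kept. Among all 33 members, *GADD45A* had the highest mean level per kb in the scramble libraries and *CDKN1A* the next, at 150.4 ± 10.9. The length used joins the exons of all annotated transcripts of a gene, which can exceed the length of the transcripts present. The ranking between genes therefore depends on the annotation. It also depends on reads of each gene having been counted alike, which was not tested. In the siRNA libraries *CDKN1A* averaged 166 ± 13.4 CPM per kb, which is within the spread of *GADD45A* there.

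**Figure D2:**
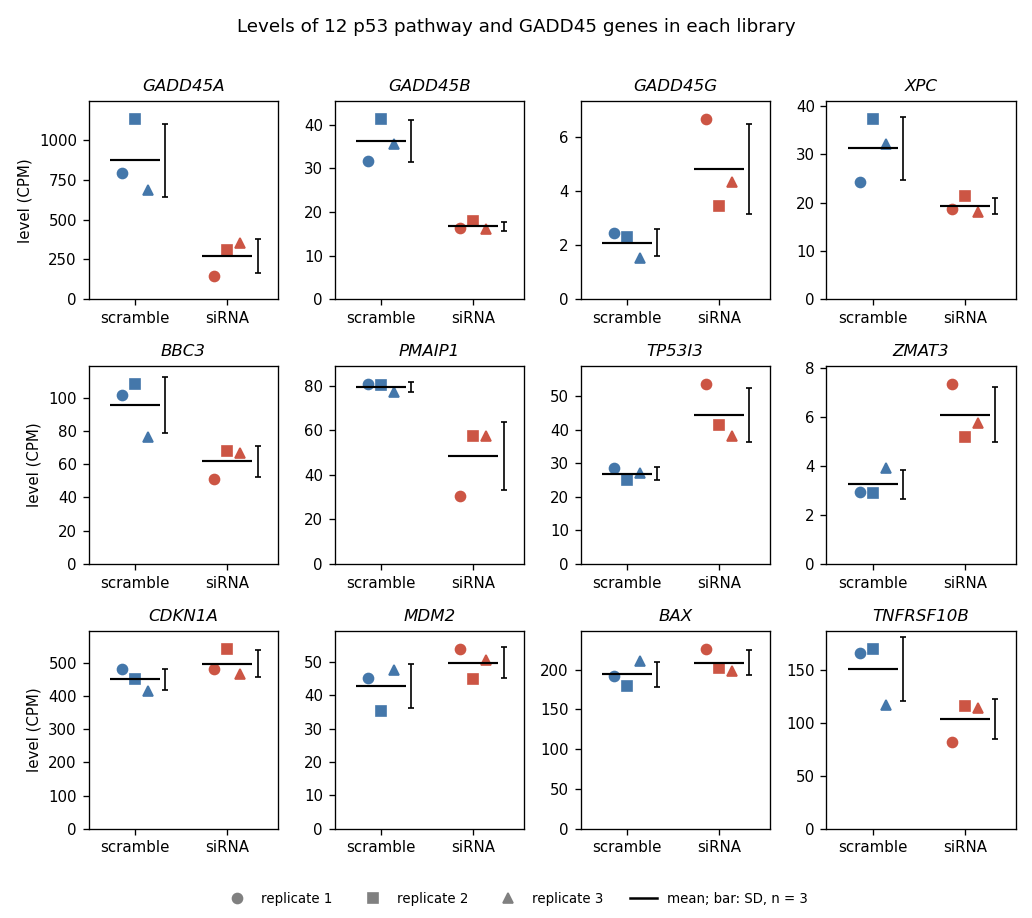
Each panel plots the level of 1 gene in CPM on a linear axis from 0, with 3 scramble libraries in blue and 3 siRNA libraries in red, the replicate number as the marker shape, the mean as a line and the SD as a bar. The groups lie apart for *GADD45A*, *GADD45B*, *GADD45G*, *XPC*, *BBC3*, *PMAIP1*, *TP53I3*, *ZMAT3* and, narrowly, *TNFRSF10B*, and overlap for *CDKN1A*, *MDM2* and *BAX*.

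The other growth arrest genes tested, *CDKN1A* and *BTG2*, did not pass the threshold. *CDKN1A*, which encodes the CDK inhibitor p21 and is the classic readout of p53 activity, stood at 483, 452 and 417 CPM in the scramble and 483, 544 and 468 CPM in the siRNA libraries. The groups overlapped, and siRNA replicate 1, where *GADD45A* was lowest, held the same *CDKN1A* level as scramble replicate 1. The fold over scramble was 1.11 with a 95% interval of 0.922 to 1.32 and an adjusted p of 0.512. The interval of *GADD45A*, 0.208 to 0.464, lies wholly below it. The exact permutation p was 0.2. *BTG2*, an antiproliferative gene, went from 27.3 ± 3.09 to 21.3 ± 1.23 CPM. Its libraries did not overlap, but its log2 fold change of -0.36 had an adjusted p of 0.179.

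Among the regulators of p53 itself, 0 of 5 tested genes passed edgeR's test, 1 had an unadjusted p under 0.05 and DESeq2 called 0. *MDM2*, the ubiquitin ligase that p53 induces against itself, stood at 45.1, 35.2 and 47.8 CPM in the scramble and 54.1, 44.9 and 50.6 CPM in the siRNA libraries. The groups overlapped, and the fold was 1.18 with a 95% interval of 0.938 to 1.48, an adjusted p of 0.383 and an exact permutation p of 0.3. *MDM4*, its partner, had a fold of 0.942 (interval 0.709 to 1.25). *PPM1D*, a phosphatase that resets the damage response, was at 12.2, 11.6 and 12.7 against 6.65, 10.9 and 9.16 CPM, lower in every siRNA library, with a log2 fold change of -0.44 and an adjusted p of 0.22. *CCNG1*, a p53-induced cyclin, had 39.4, 67.9 and 80.2 CPM in the siRNA libraries against 68.3 to 71.8 in the scramble, so that siRNA replicate 1 was low and replicate 3 high. Its log2 fold change was -0.16 with all libraries and 0.087 without siRNA replicate 1. The stress kinase gene *PLK3* had a log2 fold change of -0.06 and overlapping groups. Its relative *PLK2* was too scarce to test, with 4, 3 and 0 counts in the scramble and 2, 3 and 1 in the siRNA libraries.

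The genes linked to cell death moved both ways. Of 11 tested, *BBC3* fell, *TP53I3* and *ZMAT3* rose, and 8 did not pass. The share that passed was 27.3%, against 5.36% of all genes tested. Among *BBC3*, *PMAIP1*, *BAX* and the death receptor genes, *BBC3* alone passed edgeR's test. *BBC3* encodes PUMA, a BH3-only protein that unlocks BAX and BAK. It stood at 102, 108 and 76.5 CPM in the scramble and 51.2, 67.8 and 66.5 CPM in the siRNA libraries, lower in all 3, with a log2 fold change of -0.64 ± 0.16 (SE) and an adjusted p of 0.0357. That call was lost without scramble replicate 1 (adjusted p = 0.139), scramble replicate 2 (adjusted p = 0.17) or siRNA replicate 2 (adjusted p = 0.0678), and over the alternatives the value ran from 0.000669 to 0.17.

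*PMAIP1* encodes NOXA, the other main p53-linked BH3-only protein. Its scramble libraries were tightly placed at 80.9, 80.5 and 77.1 CPM, and its siRNA libraries lay at 30.6, 57.4 and 57.4 CPM. All siRNA libraries were lower, with replicate 1 far under the other two. The log2 fold change was -0.71 ± 0.20 (SE) with an adjusted p of 0.0548, just outside the threshold. Without siRNA replicate 1 it was -0.47 with an adjusted p of 0.0246, and without siRNA replicate 3 it was -0.85 with an adjusted p of 0.0362. DESeq2 gave *PMAIP1* an adjusted p of 0.0133, in a range of 0.000164 to 0.172 over the alternatives.

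*BAX*, the pore-forming effector that these proteins act on, did not pass, with 193, 179.9 and 211 CPM in the scramble and 227, 202 and 198 CPM in the siRNA libraries. Its fold was 1.08 with a 95% interval of 0.896 to 1.29.

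The death receptor genes did not pass edgeR's test. *TNFRSF10B* (DR5) stood at 166, 169.8 and 116 CPM in the scramble and 81.5, 115 and 114 CPM in the siRNA libraries, so that the groups were separated by less than 1 CPM between scramble replicate 3 and siRNA replicate 2. Its log2 fold change was -0.55 with an adjusted p of 0.0794, and DESeq2 gave 0.0391 in a range of 0.00291 to 0.286 over the alternatives. *TNFRSF10A* (DR4) was at 21.1, 30.2 and 24.8 against 39.0, 34.8 and 32.9 CPM, higher in every siRNA library, with a log2 fold change of 0.48 and an adjusted p of 0.103. *FAS*, the third such receptor, had overlapping groups and a fold of 1.07 (interval 0.825 to 1.39).

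Both genes that rose are p53 targets outside the BCL2 family. *TP53I3* (PIG3), a quinone oxidoreductase linked to reactive oxygen species, stood at 28.7, 24.9 and 27.2 CPM in the scramble and 53.7, 41.3 and 38.2 CPM in the siRNA libraries, higher in all 3. Its log2 fold change was 0.72 ± 0.16 (SE) with an adjusted p of 0.0221. The call was lost without scramble replicate 1 (adjusted p = 0.076), scramble replicate 2 (adjusted p = 0.121) or scramble replicate 3 (adjusted p = 0.0738), and the range over the alternatives was 0.0022 to 0.121.

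*ZMAT3*, an RNA-binding zinc finger gene, rose from a low level. It had 25, 29 and 13 counts in the scramble and 53, 36 and 49 in the siRNA libraries, or 2.93, 2.88 and 3.93 against 7.35, 5.18 and 5.76 CPM, without overlap. The log2 fold change was 0.96 ± 0.25 (SE) with an adjusted p of 0.0456. No fit with a library left out kept it under the threshold, with adjusted p from 0.0636 without siRNA replicate 3 to 0.183 without scramble replicate 2, and DESeq2 gave 0.111. Among the 6 members called, *ZMAT3* passed in the fewest of these fits.

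The remaining death genes did not pass. *TP53INP1*, a stress-induced nuclear protein gene, had 8, 2 and 3 counts in the scramble and 12, 9 and 14 in the siRNA libraries, with a log2 fold change of 1.33, a 95% interval of 0.22 to 2.43 and an adjusted p of 0.146. It passed the filter on low counts only through the siRNA libraries, where it was high, so that a positive difference had to follow. It is also 1 of the 6 members counted as higher without overlap. *AEN*, an apoptosis-linked exonuclease gene, went from 128 ± 14.1 to 108 ± 8.01 CPM, and *PHLDA3*, an AKT antagonist, from 51.0 ± 6.36 to 44.1 ± 2.05 CPM. In both the siRNA libraries all lay lower, with adjusted p of 0.266 and 0.421. *SPATA18*, a mitochondrial quality gene, had 0 counts in every library, which allows up to 3 counts, or 0.298 to 0.907 CPM depending on the library.

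In DNA repair, *XPC* was the 1 of 4 tested genes that passed (25.0%, against 5.36% of all genes tested). It encodes the damage sensor that opens global nucleotide excision repair, and stood at 24.4, 37.3 and 32.1 CPM in the scramble and 18.7, 21.3 and 18.1 CPM in the siRNA libraries. The siRNA libraries were close together and under all scramble libraries. The log2 fold change was -0.69 ± 0.18 (SE) with an adjusted p of 0.0389. The adjusted p was 0.201 without scramble replicate 2, 0.105 without scramble replicate 3, 0.073 without siRNA replicate 2 and 0.0843 without siRNA replicate 3, and over the alternatives it ran from 0.00258 to 0.201. *XPC* shares 1140 bases of exon with *XPC-AS1* on the other strand, and counting by strand is not stated, so reads from both could be mixed.

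*DDB2*, the damaged-DNA binder that works beside XPC, did not pass, at 30.8, 28.4 and 23.0 against 27.5, 29.3 and 30.3 CPM and a fold of 1.05 (interval 0.836 to 1.31). *POLH*, the polymerase that copies across ultraviolet damage, was higher in every siRNA library, at 4.80, 3.48 and 3.63 against 9.70, 6.19 and 5.40 CPM, with a log2 fold change of 0.81 and an adjusted p of 0.104. *RRM2B*, the p53-inducible ribonucleotide reductase subunit, ranged from 6.66 to 12.1 CPM in the scramble and from 6.24 to 14.1 CPM in the siRNA libraries, too wide a spread to place its log2 fold change of 0.23 (interval -0.40 to 0.86).

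Of the 6 genes for metabolism, survival and secreted signals, edgeR and DESeq2 each called 0. Against 22.5% of all genes tested, 1 of the 6 (16.7%) had an unadjusted p under 0.05. That gene was *GDF15*, a secreted stress cytokine, at 66.9, 92.5 and 35.7 CPM in the scramble and 13.7, 44.7 and 43.5 CPM in the siRNA libraries. Scramble replicate 3 lay below siRNA replicates 2 and 3, so the groups overlapped, and siRNA replicate 1 was the lowest of all. The log2 fold change was -0.96 ± 0.37 (SE) with an adjusted p of 0.142, and -0.61 without siRNA replicate 1. *SESN1*, an inhibitor of mTORC1 signaling, went from 7.63 ± 1.17 to 6.17 ± 1.47 CPM (adjusted p = 0.505). *FDXR*, *TIGAR*, *TRIAP1* and *RPS27L*, with roles in mitochondrial electron transfer, glycolysis, apoptosis control and the ribosome, had folds of 1.11, 1.05, 1.04 and 0.932 and overlapping groups.

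For 13 of the 25 tested members that did not pass, the 95% interval lay within 1.5-fold of no change in either direction. They are *MDM2*, *MDM4*, *CDKN1A*, *BAX*, *FAS*, *DDB2*, *PHLDA3*, *FDXR*, *TIGAR*, *AEN*, *PLK3*, *RPS27L* and *TRIAP1*. For the other 12 the data cannot set a limit that tight. In 16 of the 31 tested members siRNA replicate 1 held the lowest siRNA level, among them *GADD45A*, *BBC3*, *PMAIP1*, *TNFRSF10B* and *GDF15*, and in 12 others it held the highest. Without that library the log2 fold change was -0.53 for *BBC3*, -0.67 for *XPC*, 0.56 for *TP53I3* and 0.82 for *ZMAT3*. Among members that did not pass with all libraries, it was 0.82 for *GADD45G*, -0.41 for *TNFRSF10B*, 0.52 for *POLH*, -0.27 for *PPM1D* and -0.14 for *SESN1*, the last 3 nearer to 0 by over 1.5 times. Without it 6 of 31 members passed, with *PMAIP1* among them and *ZMAT3* not.

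**Figure D3:**
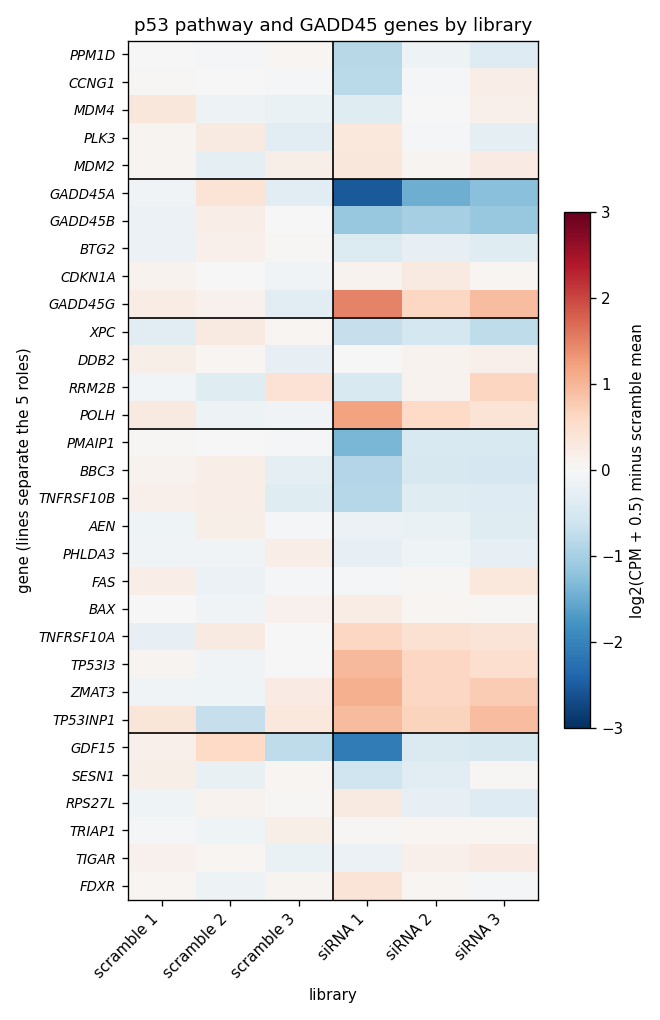
Columns are the 6 libraries and rows the 31 tested genes by role, and the colour gives log2(CPM + 0.5) minus the mean of the 3 scramble libraries, red for higher and blue for lower. The GADD45 pair *GADD45A* and *GADD45B* are blue and *GADD45G* red in all 3 siRNA columns, and the deepest blue and the deepest red, those of *GADD45A* and *GADD45G*, are both in siRNA replicate 1.

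The genes around these members were looked up in the same fit, in 5 lists that hold 105 further genes, each counted once, of which 91 were tested. Of these 91, 10 passed the threshold, all 10 lower with the siRNA, and 62 (68.1%) had a log2 fold change below 0, against 6247 of all 12507 genes tested (49.9%). The share lower among all genes tested was the 2.23% given above. The lists were chosen with earlier results of these data known, so these shares may reflect that choice.

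The input to p53 came first. Of 19 tested genes for kinases, ligases and cofactors of p53, *RPL5* alone passed (5.26%, against 5.36% of all genes tested). The median log2 fold change of the list was -0.12. *RPL5*, a ribosomal protein that can bind and hold back MDM2, stood at 1158, 1220.1 and 1214 CPM in the scramble and 870.5, 779.9 and 774 CPM in the siRNA libraries. Its log2 fold change was -0.57 ± 0.11 (SE) with an adjusted p of 0.0137, and without scramble replicate 1, 2 or 3 or siRNA replicate 2 the adjusted p was 0.0563, 0.0739, 0.0576 and 0.0638. Its partner *RPL11* had a log2 fold change of -0.16 and an adjusted p of 0.42.

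Of 23 further p53 targets tested, 2 passed, both lower (8.7%, against 2.23% of all genes tested, median -0.06). *ATF3*, a stress transcription factor gene that p53 and ATF4 both switch on, averaged 48.9 CPM in the scramble and 19.1 CPM in the siRNA libraries, with a log2 fold change of -1.36 ± 0.27 (SE) and an adjusted p of 0.0136. Without scramble replicate 1 the adjusted p of *ATF3* was 0.0501 and without scramble replicate 2 it was 0.0947. *PCNA*, the sliding clamp of replication forks and also a binding partner of GADD45 proteins, averaged 548 against 373 CPM, with a log2 fold change of -0.56 ± 0.12 (SE) and an adjusted p of 0.0191. The adjusted p of *PCNA* was 0.0698, 0.0644 and 0.0842 without scramble replicates 1, 2 and 3, and 0.0716 without siRNA replicate 2.

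The next list held genes described as shut down by p21 through the DREAM repressor complex. Of 20 tested, 5 passed and all 5 were lower (25.0%, against 2.23% of all genes tested). In 17 the log2 fold change was below 0 (median -0.27). *CKS1B*, a small CDK subunit, fell furthest, from 42.5 to 18.6 CPM (log2 fold change -1.19 ± 0.17 SE, adjusted p = 0.00372). *CCNB2*, a mitotic cyclin, went from 92.5 to 53.2 CPM (log2 fold change -0.80, adjusted p = 0.00505), and *RRM2*, the replicative ribonucleotide reductase subunit, from 373 to 219 CPM (log2 fold change -0.77, adjusted p = 0.00507). These 3 genes passed in all 6 fits with a library left out. *MYBL2* fell from 81.1 to 49.5 CPM (adjusted p = 0.011), with 0.0752 without scramble replicate 2 and 0.0537 without siRNA replicate 2. *CCNA2* was the fifth, from 123 to 83.7 CPM (adjusted p = 0.0316), and its adjusted p was 0.115, 0.101, 0.105 and 0.0909 without scramble replicates 1, 2 and 3 and siRNA replicate 2. The list was not uniform, since *PLK1*, *BIRC5* and *CDC20* had log2 fold changes of -0.07, -0.04 and -0.20 with overlapping groups, and *TOP2A* was higher in every siRNA library at 0.95 (adjusted p = 0.0791). *CDKN1A*, which encodes p21, did not pass. The paper reports reduced proliferation of LoVo cells after the knockdown, without a significant change in cell cycle profile. Whether p21, proliferation or something else set these levels was not tested.

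The partners of GADD45 proteins held 18 tested genes, of which *PCNA* alone passed (5.56%, against 5.36% of all genes tested, median -0.22). *CDK1*, the mitotic kinase that GADD45 proteins can inhibit, averaged 88.3 against 64.9 CPM, lower in every siRNA library, with a log2 fold change of -0.44 and an adjusted p of 0.0612. *MAP3K4*, the kinase that GADD45 proteins activate, had a log2 fold change of 0.06 and overlapping groups. *MAPK14*, the p38 kinase that lies downstream of it, averaged 85.4 against 64.6 CPM (log2 fold change -0.40, adjusted p = 0.0844).

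Of 16 tested transcription regulators that act on GADD45 genes beside p53, 3 passed, all lower (18.8%, against 2.23% of all genes, median -0.36). They were *ATF3*, *DDIT3* and *EGR1*. *DDIT3*, which encodes the stress factor CHOP, stood at 127, 146 and 118 CPM in the scramble and 53.9, 63.1 and 71.2 CPM in the siRNA libraries, without overlap. Its log2 fold change was -1.06 ± 0.14 (SE) with an adjusted p of 0.00249, and it passed in all 6 fits with a library left out. *EGR1*, an immediate early zinc finger gene, averaged 346 against 193 CPM (log2 fold change -0.84, adjusted p = 0.00804), with an adjusted p of 0.0535 without scramble replicate 2. *ATF4* averaged 236 against 161 CPM and did not pass (log2 fold change -0.56, adjusted p = 0.0631), *BRCA1* averaged 48.7 against 35.6 CPM (adjusted p = 0.0597), and the NF-kB subunit gene *RELA* 147 against 117 CPM (adjusted p = 0.135). The activity of these factors was not measured.

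**Figure D4:**
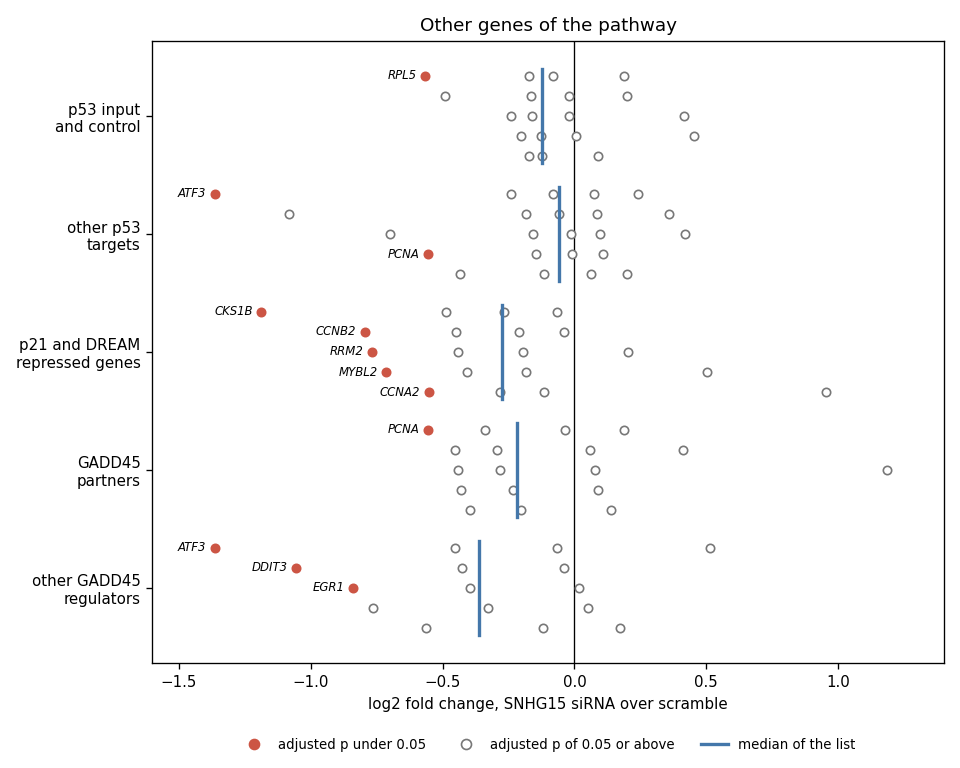
The x axis gives the log2 fold change (siRNA over scramble, edgeR) of each tested gene in the 5 lists, with vertical position inside a list only spreading the points and a blue line at the list's median. Filled red points have an adjusted p under 0.05, and all of them lie below 0, from *ATF3* at -1.36 to *CCNA2* at -0.55. *ATF3* and *PCNA* each stand in 2 lists.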

How the data were processed

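The authors deposited raw counts of reads per Ensembl gene, without normalization, for 6 libraries from TruSeq Stranded mRNA preparations. The submitters' processing notes name STAR, featureCounts and hg19, whereas the published methods name bowtie2, so the aligner is uncertain. The annotation release and the use of strand and of multiply placed reads are not given in the sources used here. Groups came from the sample titles.

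Genes were filtered with edgeR 4.0.16 (filterByExpr, minimum count 10, total 15), scaled by TMM factors, and 3 siRNA were compared with 3 scramble libraries by its quasi-likelihood F test in R 4.3.3, without a block. P-values were adjusted over all 12507 genes tested (Benjamini-Hochberg). They set the difference between the groups against the spread between these libraries, 3 per group. That spread was estimated for each gene with information from all genes tested. Levels are CPM on TMM-scaled totals. One count was worth 0.0995 to 0.302 CPM, and intervals for 0 counts cover counting error only. Names, positions and exon lengths came from GENCODE release 44 lifted to GRCh37, in which 8012 of 63677 identifiers had no entry. p53 elements were sought within 2500 bases of each canonical transcript start. *FAS* had no transcript tagged canonical, and the elements of *TNFRSF10B* and *RRM2B* are not printed. Of the members, 13 share exon bases with another gene, *XPC*, *MDM2* and *PHLDA3* by most, and 20 do not.

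The members and the lists were chosen with earlier results of these data known. All members are named, and 1 gene of the other lists is not reported here. From the other lists every gene past the threshold is named, or the 4 with the smallest p. *CCNA2* and the genes given without passing were named after their values were seen. The fits were first tested on simulated counts. Alternatives were DESeq2 1.42.0, RLE and upper-quartile factors, no filter, at least 10 counts in every library, the replicate number as a block, and leaving out each library.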

Additional observations from a re-analysis of the deposited data

How the results depend on the processing

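*GADD45A* and *GADD45B* passed the threshold, lower, in all 12 alternative fits. Over the 6 alternatives that keep all libraries, no member turned its direction. The count of members past the threshold, 6, was 7 by DESeq2, 6 with RLE factors, 7 with upper-quartile factors, 5 with at least 10 counts in every library and 10 without a filter, and it ran from 2 to 6 with a library left out. For all genes the count of 671 became 1312 without a filter and lay between 139, when scramble replicate 2 was left out, and 812, when siRNA replicate 1 was. For the other lists, 10 became 14 by DESeq2 and 21 without a filter, and with a library left out it ran from 4 to 13. Upper-quartile factors gave 515 genes higher and 230 lower, against 392 and 279. Without a filter *GDF15* had an adjusted p of 2.04e-07 at a log2 fold change of -0.98. The cause of these moves was not tested. *XPC* had an adjusted p of 0.0502 with at least 10 counts in every library.

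With the replicate number as a block, 4 members (*GADD45A*, *GADD45B*, *TP53I3* and *XPC*), 543 genes and 11 genes of the other lists passed, and *BBC3* and *ZMAT3* had adjusted p of 0.0619 and 0.0771. Same-numbered libraries deviated together little (r = -0.070, 0.155 and -0.042 for numbers 1 to 3). Differently numbered pairs ran from -0.166 to 0.145, so the value for number 2 was the highest of all. Deviations from means of 3 libraries cannot exclude a pairing. The number was not read as a pairing in the main fit.

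Leaving out 1 library turned the sign of 9 members, none of which passed in any fit. Their log2 fold changes ran from -0.20 to 0.12 for *MDM4* (0.047 without siRNA replicate 1), -0.022 to 0.23 for *FAS* (-0.0071 without scramble replicate 2), -0.032 to 0.15 for *DDB2*, -0.12 to 0.49 for *RRM2B*, -0.014 to 0.18 for *TIGAR* (-0.011 without scramble replicate 3), -0.25 to 0.099 for *PLK3* (0.076 without siRNA replicate 3), -0.38 to 0.087 for *CCNG1*, -0.33 to 0.035 for *RPS27L* and -0.0069 to 0.14 for *TRIAP1*. In scramble replicate 3, the shallowest library, 3 counts correspond to 0.907 CPM, which limits what can be said of *PLK2*, *SPATA18* and *TP53INP1*.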

Other observations

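Some of the members are described as targets of the stress factors ATF4 and CHOP as well as of p53. Named after their values were seen, they are *GADD45A*, *BBC3*, *PMAIP1*, *TNFRSF10B* and *GDF15*. All 5 had a log2 fold change below 0, with a median of -0.71, 2 passed the threshold, and in 4 the siRNA libraries lay wholly under the scramble libraries. Of the genes looked up beside the members, *ATF4*, *ATF3*, *DDIT3*, *SESN2* and *DDIT4* belong to the same stress response. All 5 were below 0 without overlap, with a median of -1.06, and 2 passed. The gap was narrow for *ATF4*, at 184 CPM in scramble replicate 3 and 181 CPM in siRNA replicate 2. It was also narrow for *SESN2*, at 324 and 313 CPM in the same libraries. *CEBPB*, looked up too and not counted among these 5, had overlapping groups (log2 fold change -0.76, adjusted p = 0.139). *SESN2*, which restrains mTORC1, averaged 409 against 252 CPM (log2 fold change -0.70, adjusted p = 0.0681), and *DDIT4*, which does so too, 3.43 against 1.65 CPM (log2 fold change -1.08, adjusted p = 0.0738). Among all genes tested, 49.9% were below 0, 2.23% passed lower and 14.1% lay lower without overlap. No test was run on either set, since both were picked from these values, and their counts describe that choice.

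The genes of the small subunits of ribonucleotide reductase are set side by side here. *RRM2*, the S-phase subunit, passed the threshold at a log2 fold change of -0.77, while *RRM2B*, the subunit that p53 induces, stood at 0.23 with an interval of -0.40 to 0.86. The groups overlapped for *RRM2B*, and its log2 fold change turned to -0.12 without siRNA replicate 3. Its difference from *RRM2* was not tested.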
